A study of Rattus norvegicus with 20 samples.

Results

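The genes described here encode the 4 classical families of axon guidance cues and their receptors, read in the medial prefrontal cortex (mPFC) of rats after chronic lysergic acid diethylamide (LSD). Members were matched by gene symbol, as semaphorins (*Sema3* to *Sema7*) and plexins (*Plxn*), ephrins (*Efn*) and Eph receptors (*Eph*), Slits and Robos, and netrins (*Ntn*, *Ntng*) and UNC5 receptors (*Unc5*). Of the 31038 symbols in the count matrix 70 matched, and 68 of these had 5 or more reads in 10 or more of the 20 rats, among 16605 genes that did. *Robo4*, the endothelial Robo, reached 5 reads in 1 rat and *Unc5cl* in 0 rats, and both were left out. Just inside the limit stood *Epha1*, with 2 to 13 reads per rat and 17 rats at 5 or more, and *Efna4*, with 2 to 24 reads and 19 rats. One of the 68, *Unc50*, shares the letters of the UNC5 receptors but encodes a Golgi protein. It did not pass the test (log2 fold change -0.11, edgeR adjusted p = 0.138), and the counts of changed genes are the same over the other 67.

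The 10 LSD-treated rats were male Sprague-Dawley animals given 0.16 mg/kg of the drug by intraperitoneal injection every other day for 90 days, and the 10 controls received sterile saline on the same schedule. Both groups were 6 to 8 weeks old at the start by the sample labels, were housed singly, and were sampled 3 weeks after the last injection by the series design. The paper's methods give an older starting age and a longer interval after the last dose, so neither is certain. One poly(A) library was made per rat from the mPFC of 1 hemisphere, so the comparison addresses what persists once chronic treatment has ended.

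Axon guidance cues are secreted or membrane-bound proteins that attract or repel growing axons through receptors on the growth cone, whose cytoskeleton they rebuild. Secreted class 3 semaphorins bind neuropilins, which signal through plexins, while ephrins bind Eph receptors on the neighbouring cell and signal in both cells. Slits act on Robos, and netrins attract through DCC and repel through UNC5 receptors. In the adult cortex many of these genes remain expressed, and several are known for roles in dendritic spines, synapse number and plasticity.

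The LSD libraries were deeper on the whole, with 16346629 to 25552681 reads on genes beside 11098076 to 24201351 in controls. Levels are given in CPM, reads scaled to a common library total after TMM normalisation. The 5 excitatory neuron markers of the labelled cortex were high in every rat, summing to 3290 to 5115 CPM. *Adora2a*, a marker of striatal projection neurons, stood at 28.7 to 44.6 CPM in 4 rats (LSD rat 9 and saline rats 2, 8 and 9) and at 5.34 to 13.7 CPM in the other 16. The 6 striatal markers summed to 201 to 435 CPM in LSD-treated rats and 230 to 609 CPM in controls, and the 7 oligodendrocyte markers to 2354 to 5979 CPM and 2388 to 7724 CPM. None of the 13 markers of these lists was at 0 in every rat, all 13 had negative log2 fold changes and 1 passed the test (*Cldn11*). Of 6 inhibitory neuron markers 2 were higher and 2 lower in edgeR (66.7%, beside 15.0% of all genes). These 6 summed to 658 to 817 CPM in LSD-treated rats and 698 to 936 CPM in controls. The counts of changed genes and the calls that differ are also given without those 4 rats.

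Across the 68 guidance genes 6 were up-regulated and 4 down-regulated in LSD-treated rats at a Benjamini-Hochberg adjusted p below 0.05 in edgeR's quasi-likelihood test. The secreted semaphorins *Sema3a*, *Sema3c* and *Sema3d*, the ephrin *Efna5*, its receptor *Epha5* and the Slit receptor *Robo2* were higher, while *Sema3b*, *Sema4c*, the netrin *Ntn1* and the netrin receptor *Unc5b* were lower. In all 10 of 68 changed, or 14.7%, beside 15.0% of all genes tested, so guidance genes changed at about the rate of all genes. The higher share was 8.82% beside 6.48% of all genes and the lower share 5.88% beside 8.54%. Log2 fold changes of the 68 ran from -0.36 for *Unc5b* to 0.44 for *Sema3d*. The median was -0.03 over the members and 0.00 over all genes tested. An unadjusted edgeR p below 0.05 was found in 26 of the 68 members, beside 5111 of all 16605 genes tested. In bulk tissue such as this, fewer cells of a type and less RNA per cell cannot be told apart.

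**Figure D1:**
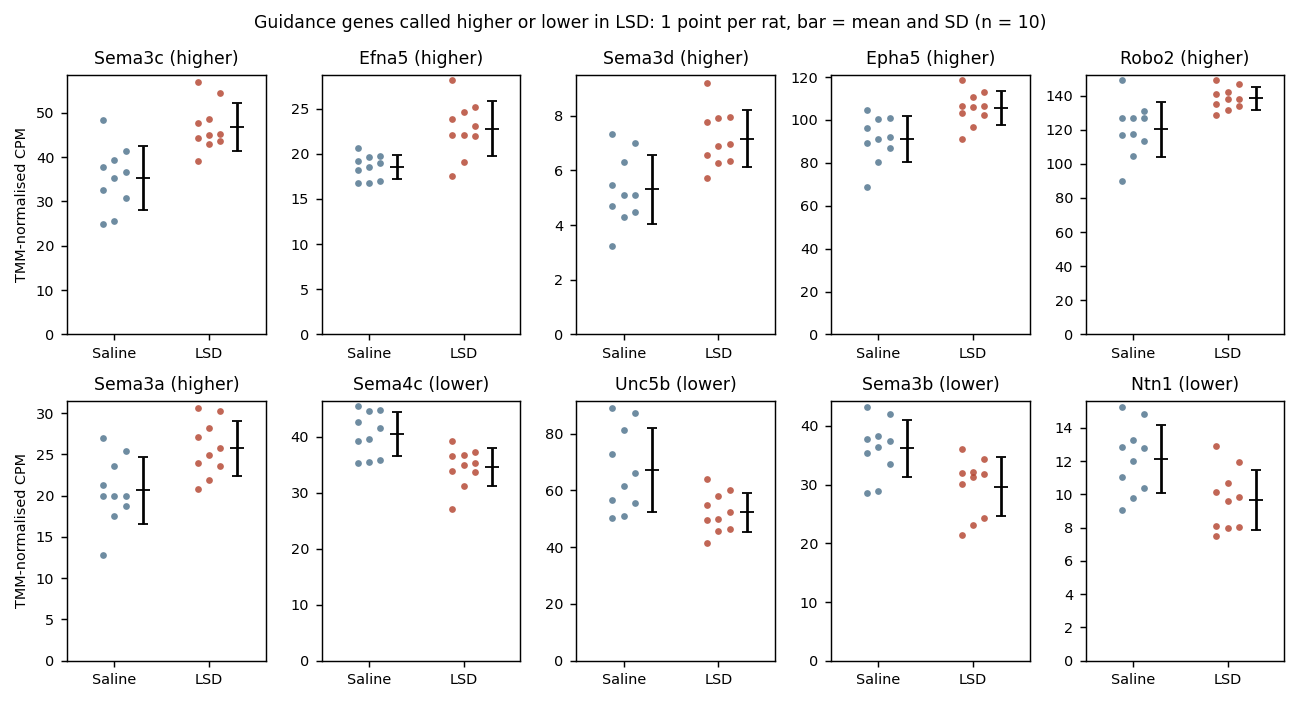
Level of the 10 changed guidance genes, in CPM after TMM scaling, with 1 point per rat and the group mean with its SD (n = 10 rats per group) beside the points. LSD-treated rats sit above the controls in the first 6 panels and below them in the last 4, and the groups overlap in each panel.

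The 7 secreted semaphorins held 4 of the 10 changes (57.1% of the 7, beside 15.0% of all genes) and moved in both directions. *Sema3c*, which attracts callosal axons, ran from 39.1 CPM through a median of 45.1 to 57.0 CPM in LSD-treated rats and from 24.9 through 36.0 to 48.4 CPM in controls. All 10 treated rats lay above the control median and 7 controls lay below every treated rat. The log2 fold change was 0.41 (SE 0.099, edgeR adjusted p = 0.0111).

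*Sema3d*, a close relative with few reads here, ran from 5.72 through 6.91 to 9.20 CPM under LSD and from 3.22 through 5.11 to 7.32 CPM under saline. It rose by a log2 fold change of 0.44 (SE 0.12, edgeR adjusted p = 0.0221), with all 10 treated rats above the control median. *Sema3a*, the founding repellent of this class and a component of the perineuronal net in adult brain, ran from 20.8 through 25.4 to 30.6 CPM under LSD and from 12.8 through 19.99 to 26.998 CPM under saline. Its log2 fold change was 0.32 (SE 0.10, edgeR adjusted p = 0.0395), again with 10 of 10 treated rats above the control median but with more overlap, 6 controls lying below every treated rat.

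*Sema3b* moved the other way. It ran from 21.4 through 31.5 to 36.0 CPM under LSD and from 28.5 through 36.9 to 43.2 CPM under saline, with no treated rat above the control median. The log2 fold change was -0.29 (SE 0.094, edgeR adjusted p = 0.0427). The 3 remaining members did not pass the test, at 0.17 for *Sema3e* (edgeR adjusted p = 0.149), -0.20 for *Sema3f* (edgeR adjusted p = 0.151) and -0.03 for *Sema3g* (edgeR adjusted p = 0.854). The neuropilins that bind these cues did not pass it either, with log2 fold changes of 0.12 for *Nrp1* (edgeR adjusted p = 0.355) and -0.11 for *Nrp2* (edgeR adjusted p = 0.622).

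The 13 membrane-bound or membrane-linked semaphorins of classes 4 to 7 had 1 member that passed the test (7.69%, beside 15.0% of all genes). Of the 13, 12 had negative log2 fold changes, beside 8237 of all 16605 genes, with a median of -0.14. The exception was *Sema5a* at 0.15. That one-sidedness held at 9 to 12 negative members of 13 under every alternative but 1, a fit with the number of reads on genes as a covariate, where 6 were negative. *Sema4c*, a ligand of the B-type plexins, ran from 27.1 through 35.1 to 39.2 CPM under LSD and from 35.2 through 40.5 to 45.5 CPM under saline. No treated rat reached the control median, and 7 controls lay above every treated rat. It fell by 0.22 on the log2 scale (SE 0.065, edgeR adjusted p = 0.0243).

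*Sema6b*, which drew the most reads of all semaphorins, ran from 190 through 229 to 284 CPM under LSD and from 191 through 263 to 338 CPM under saline. Only 1 treated rat exceeded the control median, and the log2 fold change of -0.24 did not pass (SE 0.092, edgeR adjusted p = 0.0732). *Sema4g* missed the threshold most narrowly of all members, at -0.28 (SE 0.096, edgeR adjusted p = 0.0518). *Sema7a*, a glycolipid-anchored cue that acts on *Plxnc1*, was at -0.13 (edgeR adjusted p = 0.388).

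None of the 9 plexins, the signalling receptors for semaphorins, passed edgeR's test or DESeq2's, beside 15.0% of all genes in edgeR, and 2 had an unadjusted p below 0.05 by either tool. *Plxna1*, with the most reads of the family, ran from 159 through 218 to 264 CPM under LSD and from 126 through 206 to 241 CPM under saline, a log2 fold change of 0.11 (SE 0.12, edgeR adjusted p = 0.588). *Plxnc1* came nearest, at 0.18 (SE 0.068, edgeR adjusted p = 0.0663), with all 10 treated rats above the control median. The A-type *Plxna4* stood at 0.22 (SE 0.12, edgeR adjusted p = 0.205) and *Plxnd1*, a receptor for *Sema3e*, at -0.19 (SE 0.083, edgeR adjusted p = 0.115).

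**Figure D2:**
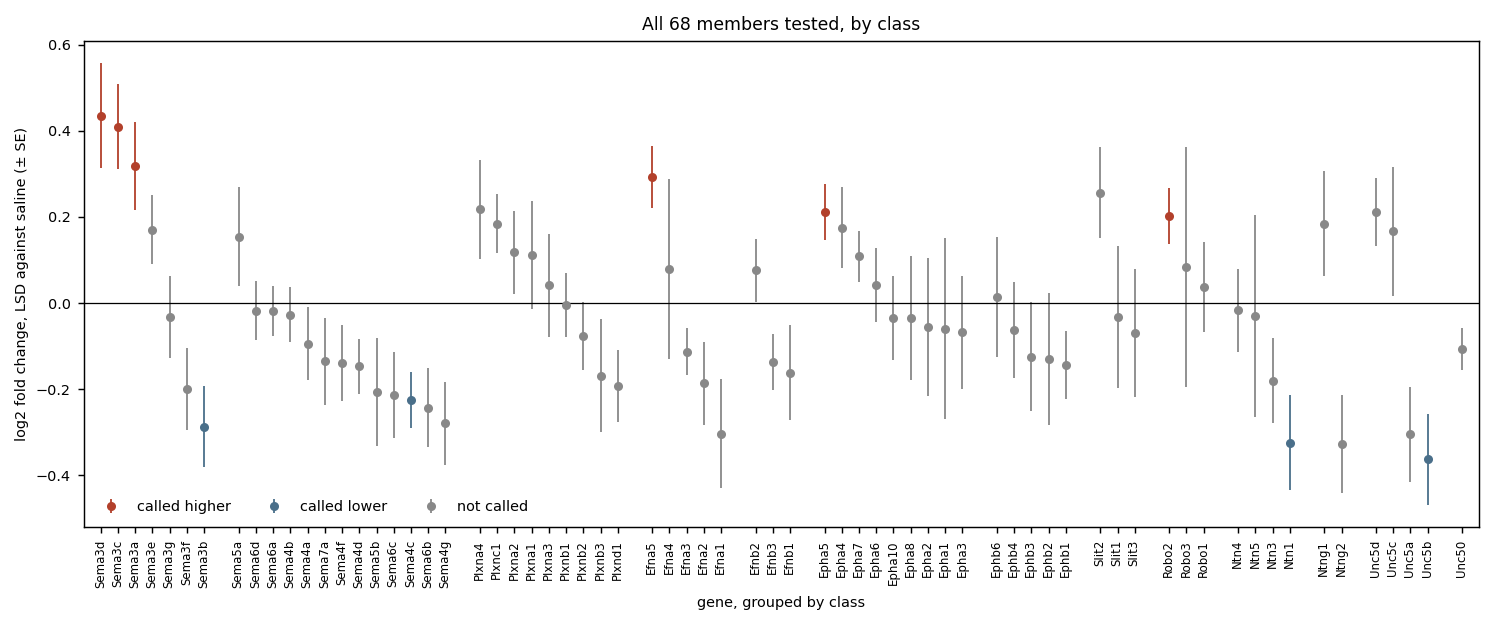
Log2 fold change of LSD-treated rats against controls with its SE for each of the 68 guidance genes tested, ordered by class and coloured by the edgeR call. Changes lie between -0.36 and 0.44, and the membrane-bound semaphorins are below 0 except for *Sema5a* at 0.15.

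In the ephrin system the 2 changes were a ligand and its receptor, both higher. They were 1 of 8 ephrins and 1 of 14 Eph receptors (12.5% and 7.14%, beside 15.0% of all genes). *Efna5*, a glycolipid-anchored ligand for topographic mapping, ran from 17.5 through 22.6 to 28.2 CPM under LSD and from 16.8 through 18.8 to 20.7 CPM under saline. Of the 10 treated rats 8 exceeded every control, more than for the other 5 genes that rose, and LSD rat 10 was the lowest treated animal. The log2 fold change was 0.29 (SE 0.071, edgeR adjusted p = 0.0114).

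*Epha5*, a receptor for A-type ephrins that is abundant in forebrain neurons, ran from 90.9 through 106 to 119 CPM under LSD and from 68.6 through 91.8 to 105 CPM under saline. The control median was exceeded by 9 treated rats and every control by 6, and the log2 fold change was 0.21 (SE 0.065, edgeR adjusted p = 0.0308). None of the other 13 Eph receptors passed in edgeR or DESeq2, beside 15.0% of all genes in edgeR. An unadjusted p below 0.05 was found in 0 of these 13 by either tool, beside 5111 of all 16605 genes in edgeR. *Ephb6*, a kinase-inactive member and the most-read of the family, ran from 253 through 352 to 490 CPM under LSD and from 225 through 376 to 502 CPM under saline, with a log2 fold change of 0.01 (SE 0.14, edgeR adjusted p = 0.962). *Epha4*, which repels axons and trims spines, stood at 0.17 (SE 0.094, edgeR adjusted p = 0.214).

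Among the other ephrins *Efnb3*, the most-read, ran from 83.2 through 96.3 to 109 CPM under LSD and from 86.6 through 107 to 124 CPM under saline. It was at -0.14 (SE 0.065, edgeR adjusted p = 0.157). *Efna1* was at -0.30 (SE 0.13, edgeR adjusted p = 0.103), of the opposite sign to *Efna5*. Over both ephrin classes 3 of 8 log2 fold changes were positive.

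*Robo2*, a Slit receptor that also takes part in synapse formation, was the one Slit or Robo gene that changed. It ran from 128 through 138 to 149 CPM under LSD and from 89.7 through 122 to 149 CPM under saline. Of the 10 controls 8 lay below every treated rat, while saline rat 8 came close to the highest of them. Its log2 fold change was 0.20 (SE 0.065, edgeR adjusted p = 0.0385). Of the ligands, *Slit2* stood at 0.26 (SE 0.11, edgeR adjusted p = 0.1003) and *Slit1* at -0.03 (SE 0.16, edgeR adjusted p = 0.919). *Slit1* ranged from 106 through 206 to 250 CPM under LSD and from 106 through 205 to 294 CPM under saline. *Robo3*, the divergent Robo of commissural axons, was the most variable member among controls, with a coefficient of variation of 57.2%, and its log2 fold change of 0.08 carried an SE of 0.28.

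The 2 changes of the netrin system were a ligand and a repulsive receptor, both lower. They were 1 of 6 netrin genes and 1 of 4 UNC5 receptors (16.7% and 25.0%, beside 15.0% of all genes). *Ntn1*, the classical netrin, ran from 7.50 through 9.73 to 12.9 CPM under LSD and from 9.06 through 12.4 to 15.2 CPM under saline, with 1 treated rat above the control median. It fell by 0.32 on the log2 scale (SE 0.11, edgeR adjusted p = 0.0488), of the 68 members the call nearest to the threshold. *Unc5b*, a netrin receptor known from vessels as well as neurons, ran from 41.5 through 51.1 to 63.9 CPM under LSD and from 50.2 through 63.8 to 89.1 CPM under saline. The log2 fold change was -0.36 (SE 0.11, edgeR adjusted p = 0.0257), and LSD rat 9 alone exceeded the control median.

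The other netrin receptors did not share one direction. *Unc5a*, the most-read UNC5 gene, ran from 176 through 222 to 289 CPM under LSD and from 189 through 258 to 398 CPM under saline, at -0.30 (SE 0.11, edgeR adjusted p = 0.0627). *Unc5c* and *Unc5d* were positive at 0.17 (edgeR adjusted p = 0.483) and 0.21 (edgeR adjusted p = 0.0698). *Dcc*, the attractive receptor, was at 0.27 (SE 0.0998, edgeR adjusted p = 0.0687) and its paralogue *Neo1* at 0.14 (SE 0.063, edgeR adjusted p = 0.138). The netrin-G genes, whose proteins are anchored at synapses and bind no UNC5, stood at 0.18 for *Ntng1* (edgeR adjusted p = 0.322) and -0.33 for *Ntng2* (edgeR adjusted p = 0.0549). *Ntng2*, the most-read netrin gene, ran from 44.9 through 61.0 to 69.9 CPM under LSD and from 54.6 through 73.5 to 99.8 CPM under saline, with no treated rat above the control median.

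Split by role, 4 of the 37 ligands were higher and 3 lower (10.8% and 8.11%), beside 6.48% and 8.54% of all genes. Their log2 fold changes were negative in 27, beside 8237 of all 16605 genes, with a median of -0.09. Of the 30 receptors 2 were higher and 1 lower (6.67% and 3.33%), with 15 of each sign and a median of 0.00. These balances moved with the scaling, since dividing by total counts alone gave 35 positive values of all 68 members and not 25.

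The partners and signalling proteins of these genes changed at 10.5% and 17.6%, beside 15.0% of all genes. Of 19 other guidance receptors and modulators 2 were higher and 0 lower in edgeR and in DESeq2, with a median of 0.11 and 1 lower at an unadjusted p below 0.05. They were *Flrt2*, a ligand of UNC5 receptors (log2 fold change 0.33, SE 0.076, edgeR adjusted p = 0.00902), and *Chl1*, a cell adhesion molecule that binds neuropilin-1 (0.40, SE 0.10, edgeR adjusted p = 0.0144). Of 51 intracellular effectors 6 were higher and 3 lower, with a median of 0.03. The kinases *Rock1* (0.40, edgeR adjusted p = 0.0100) and *Rock2* (0.25, edgeR adjusted p = 0.0352), which contract actin downstream of repellents, were higher.

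*Arhgef12*, an exchange factor that binds B-type plexins, was higher as well (0.24, edgeR adjusted p = 0.0498), as were *Abl1*, *Rasa1* and *Pak3*, at 0.41, 0.28 and 0.29. *Cdk5*, the kinase that phosphorylates collapsin response mediators, fell by 0.21 on the log2 scale (edgeR adjusted p = 0.0126). The actin regulator *Evl* was lower too, at -0.16 (edgeR adjusted p = 0.0255).

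Several of these effector calls were lost in other fits. One of these used gene span offsets, which take from each library its mean deviation among genes of like span (length from first to last exon). With them *Rock2*, *Pak3*, *Arhgef12*, *Rasa1* and *Cdk5* did not pass (edgeR adjusted p = 0.125, 0.172, 0.119, 0.0737 and 0.0594). Positive log2 fold changes then numbered 15 of 51 effectors, against 32 without the offsets. With reads on genes as a covariate *Rock1*, *Abl1*, *Evl* and *Cdk5* did not pass (edgeR adjusted p = 0.0666, 0.0669, 0.0789 and 0.0559). Nor did *Rock2*, *Pak3*, *Arhgef12*, *Rasa1* and the partner *Chl1* in that fit, while *Flrt2* did (edgeR adjusted p = 0.0402). At equal depth *Abl1* and *Arhgef12* did not pass (edgeR adjusted p = 0.0718 and 0.0606). Over 20 fits that each left out 1 rat *Rock2* passed in 11, *Pak3* in 9, *Arhgef12* in 7 and *Evl* in 19, the last not without saline rat 1 (edgeR adjusted p = 0.0503). *Rock2* was lost without LSD rats 3, 4, 7 or 8 or saline rats 1, 3, 4, 5 or 9, and *Pak3* without these or LSD rat 9 or saline rat 6. *Arhgef12* was lost without any treated rat but rats 1 and 7 or without saline rats 1, 3, 4, 5 or 6. Their edgeR adjusted p then reached at most 0.0706, 0.0788 and 0.0837.

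The regions upstream of the changed genes are shown because they differ widely in base composition. RefSeq starts were found for 53 of the 68 members, and for 7 of the 10 changed genes. The 250 bases before each start are given 5′ to 3′ in the gene's orientation, with GC boxes (GGGCGG, either strand) in capitals.
Sema3c (GRCr8 chr4:18699628-18699877, minus strand): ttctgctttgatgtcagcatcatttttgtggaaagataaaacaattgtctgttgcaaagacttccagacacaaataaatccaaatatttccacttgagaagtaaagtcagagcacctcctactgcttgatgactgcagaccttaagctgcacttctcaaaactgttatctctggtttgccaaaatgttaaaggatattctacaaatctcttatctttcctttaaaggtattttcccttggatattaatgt
Sema3d (GRCr8 chr4:23460972-23461221, minus strand): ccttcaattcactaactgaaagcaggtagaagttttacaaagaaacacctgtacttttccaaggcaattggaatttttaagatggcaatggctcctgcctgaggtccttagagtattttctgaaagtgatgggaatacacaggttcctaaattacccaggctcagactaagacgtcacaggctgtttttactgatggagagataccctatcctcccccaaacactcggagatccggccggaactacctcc
Efna5 (GRCr8 chr9:110042188-110042437, minus strand): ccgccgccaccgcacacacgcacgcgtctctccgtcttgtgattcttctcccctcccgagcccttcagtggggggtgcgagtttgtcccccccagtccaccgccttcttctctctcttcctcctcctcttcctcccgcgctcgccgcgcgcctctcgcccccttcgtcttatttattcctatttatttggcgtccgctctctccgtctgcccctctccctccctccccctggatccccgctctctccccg
Sema4c (GRCr8 chr9:46297999-46298248, minus strand): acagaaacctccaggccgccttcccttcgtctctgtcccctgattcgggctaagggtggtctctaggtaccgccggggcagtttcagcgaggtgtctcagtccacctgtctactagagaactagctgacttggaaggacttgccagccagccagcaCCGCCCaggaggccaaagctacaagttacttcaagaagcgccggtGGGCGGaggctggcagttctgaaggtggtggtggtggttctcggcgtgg
Unc5b (GRCr8 chr20:29307271-29307520, minus strand): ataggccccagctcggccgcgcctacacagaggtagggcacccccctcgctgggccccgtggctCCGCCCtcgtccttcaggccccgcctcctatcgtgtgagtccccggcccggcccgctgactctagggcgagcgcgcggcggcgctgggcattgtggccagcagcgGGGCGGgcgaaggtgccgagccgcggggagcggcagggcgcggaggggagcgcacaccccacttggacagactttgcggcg

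Of these 5 windows *Sema3c* has 35.2% G and C with 0 CpG pairs and *Sema3d* 44.8% with 4, while *Efna5* has 64.8% with 23, *Sema4c* 60% with 12 and *Unc5b* 75.2% with 30. Over the 53 members the median was 62.4% and over 33469 promoters 51.2%. Those 33469 were not limited to the 16605 genes that passed the read filter, whereas the members were. GC boxes stood in 58.5% of the members' windows and 30.5% of all, among them 1 of 5 genes that rose (*Robo2*) and 2 of 2 that fell. TATAAA occurred in 0 of 53 windows and in 12.9% of all, CACGTG in 7.55% and 5.59%, and TGACGTCA in 1.89% and 1.59%, both strands being searched, and no motif contains another. A match is a string of letters in one window and no evidence of a bound factor.

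The guidance genes are long, and their fold changes ran with the length. Gene span, the distance from first to last exon in the RefSeq annotation of GRCr8, had a median of 44489 bases over the members and 24514 over all genes tested. Spearman's rho between span and log2 fold change was 0.54 across the 68 members and 0.36 across all genes with a span, a description over genes that share the same 20 libraries. All 6 genes that rose span at least 164002 bases, up to 1567832 for *Robo2*. Of those that fell, *Sema4c*, *Sema3b* and *Unc5b* span 10502, 11264 and 66632 bases and *Ntn1* 198744.

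Above 100000 bases 6 of 30 members were higher and 1 lower, beside 17.2% and 2.49% of all such genes. Up to 100000 bases 0 of 38 members were higher, also in DESeq2 and at an unadjusted p below 0.05, and 3 were lower, beside 4.90% and 10.4%. The gene span offsets follow each library's mean deviation over genes of like span, computed from these same counts without regard to group. By construction they also take out any group difference shared by genes of like span, and rho over all genes was 0.05 with them. In that fit 1 member remained higher (*Sema3c*, 0.32) and 6 were lower, beside 3.42% and 6.67% of all genes. Of the 4 lower genes of the fit without offsets, *Ntn1* and *Unc5b* were among the 6, joined by *Ephb1*, *Ntng2*, *Sema4d* and *Unc5a*. *Sema4c* (edgeR adjusted p = 0.0768) and *Sema3b* (edgeR adjusted p = 0.0780) lost their call. *Efna5* then stood at 0.18 (edgeR adjusted p = 0.0819), *Sema3d* at 0.35 (edgeR adjusted p = 0.0513), *Sema3a* at 0.20 (edgeR adjusted p = 0.134), *Robo2* at 0.08 (edgeR adjusted p = 0.281) and *Epha5* at 0.10 (edgeR adjusted p = 0.203).

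**Figure D3:**
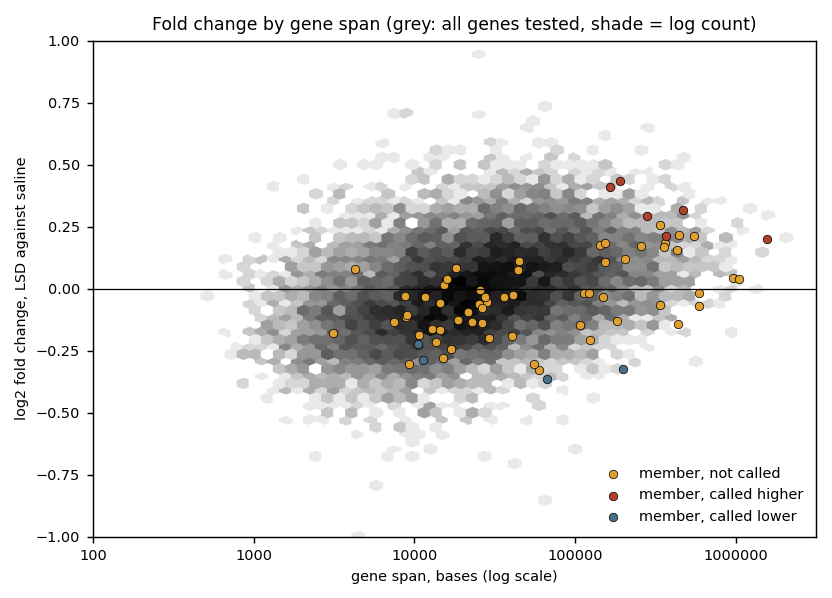
Log2 fold change of LSD-treated rats against controls by gene span in bases on a log axis, with the guidance genes as points over all genes tested in grey, whose darker cells hold more genes. The vertical axis stops at -1 and 1, and a few genes that are no members lie beyond it. The 6 members that rose span 164002 bases or more, and most members up to 100000 bases lie below 0.

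Several of the most-read guidance genes also ran with library size. In the 5 smallest libraries, 1 LSD and 4 saline, *Slit1* read 224 to 294 CPM, and in the 5 largest, 4 LSD and 1 saline, 106 to 181 CPM. *Plxna1* read 218 to 253 CPM and 126 to 175 CPM in the same libraries, *Ephb6* 386 to 502 CPM and 225 to 353 CPM, and *Unc5a* 271 to 398 CPM and 176 to 202 CPM. These ranges do not overlap, whereas those of *Robo2* (104 to 142 and 118 to 149 CPM) and *Efnb3* do.

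With reads on genes as a covariate, an alternative chosen after seeing the data, 7 members were higher and 0 lower, beside 3.22% and 3.85% of all genes. *Sema3c*, *Efna5* and *Epha5* were still among the 7, joined by *Slit2* (0.45), *Plxna1* (0.44), *Plxna4* (0.42) and *Plxnc1* (0.25). None of the 4 lower genes passed in that edgeR fit, where 2 of the 68 members were lower at an unadjusted p below 0.05. *Unc5b* kept its size at -0.36 (edgeR adjusted p = 0.0743), while *Sema4c* came to -0.11 (edgeR adjusted p = 0.264). *Sema6b*, *Unc5a* and *Ntng2*, which were not called as reported, came to -0.0044, -0.060 and -0.094 (edgeR adjusted p = 0.975, 0.726 and 0.600).

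**Figure D4:**
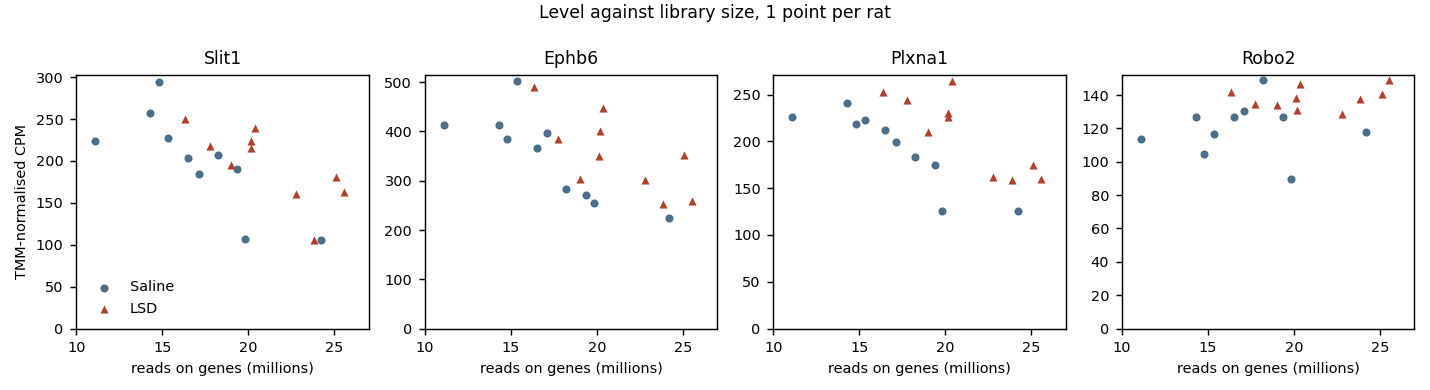
Level of *Slit1*, *Ephb6*, *Plxna1* and *Robo2* in CPM against the number of reads on genes, with 1 point per rat (circles saline, triangles LSD). The first 3 are lower in the larger libraries, where *Slit1* falls to 106 CPM, and *Robo2* is not.

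Individual rats took the lowest place in their group for many guidance genes, not all of them rats high in *Adora2a*. Saline rat 9 was the lowest control for 31 of the 68 members, or 45.6%, beside 16.2% of all genes tested. It was the lowest control for each of the 6 genes that rose. Saline rat 2 was the lowest for a further 21 members, 30.9% beside 14.3% of all genes, while saline rat 8, the highest in *Adora2a*, was the lowest for 0. Among LSD-treated rats number 10, with 6.36 CPM of *Adora2a*, was the lowest for 30 members, 44.1% beside 16.2%, and number 9, the one high in *Adora2a*, for 8.

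Leaving out the 4 rats with *Adora2a* above 20 CPM, chosen after seeing the data, left 9 LSD-treated rats and 7 controls. In that fit 4 members were higher and 9 lower, beside 10.2% and 10.1% of all genes. *Sema3c*, *Efna5*, *Epha5* and *Robo2* remained higher, and all 4 of the lower genes remained lower. The 5 that joined them were *Sema6b* (-0.32, edgeR adjusted p = 0.0203), *Unc5a* (-0.37, edgeR adjusted p = 0.0273), *Ntng2* (-0.36, edgeR adjusted p = 0.0416), *Ntn3* and the plexin *Plxnb2*. *Sema3a* and *Sema3d* did not pass, at 0.22 (edgeR adjusted p = 0.109) and 0.31 (edgeR adjusted p = 0.0841). Without these rats *Efna5* ran from 17.5 to 28.2 CPM in 9 treated rats and from 16.9 to 20.7 CPM in 7 controls, and *Sema4c* from 27.1 to 39.2 and from 35.5 to 45.5 CPM.

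Several of the calls were lost when 1 rat was left out. Over 20 fits that each left out 1 rat, *Sema3c*, *Efna5* and *Sema3d* passed in 20. *Sema4c* passed in 17, not without LSD rat 7 or saline rats 1 or 5 (edgeR adjusted p = 0.0510 to 0.0540). *Unc5b* passed in 17, not without LSD rat 8 or saline rats 1 or 3 (0.0522 to 0.0543), and *Epha5* in 15, not without LSD rats 3 or 8 or saline rats 1, 3 or 5 (0.0502 to 0.0655).

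*Robo2* passed in 10 of those fits, *Sema3a* in 9, *Sema3b* in 7 and *Ntn1* in 5, with edgeR adjusted p up to 0.0764, 0.0751, 0.0880 and 0.0988 where they did not. The sign of each stayed the same in the 20 fits. *Robo2* was lost without LSD rats 2, 3, 4, 7, 8 or 10 or saline rats 1, 4, 5 or 9, and *Sema3a* without LSD rats 2, 6, 7, 8 or 9 or saline rats 1, 3, 4, 5, 8 or 9. *Sema3b* was lost without LSD rats 3, 4, 5, 7, 8 or 10 or any control but rats 1, 2 and 6, and *Ntn1* without any treated rat but rats 2 and 9 or any control but rats 2, 9 and 10.

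The number of higher members fell from 6 to 3 without LSD rat 8 or saline rats 1 or 5. Over all genes higher calls fell from 1076 to 659, 786 and 756 in these fits. The number of lower members rose from 4 to 7 without LSD rat 1 and to 9 without saline rat 2. Over all genes lower calls rose from 1418 to 1591 and 1867 in these fits. Lower members fell to 2 without LSD rats 3, 4, 5 or 10 or saline rats 4 or 8. All genes then had 957 to 1472 lower calls, with 1472 without saline rat 8. Lower members fell to 1 without LSD rats 7 or 8 or saline rats 1, 3 or 5, where all genes had 907 to 1062.

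**Figure D5:**
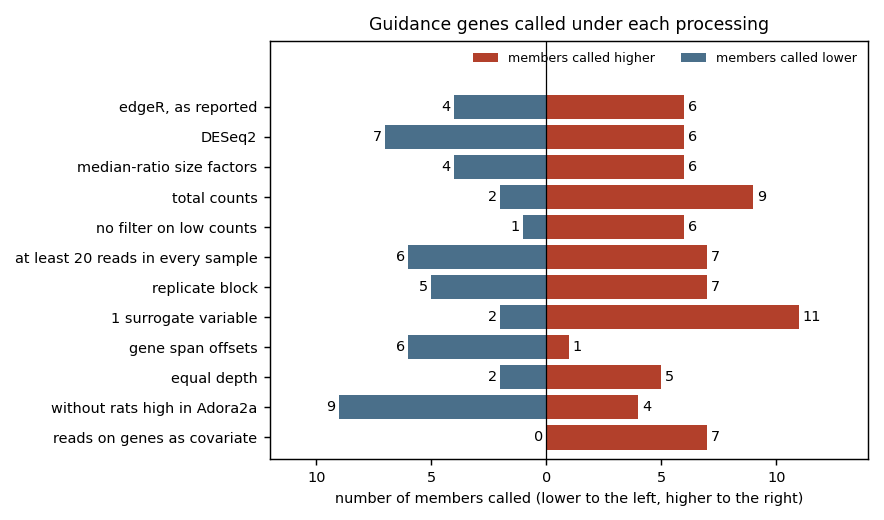
Number of guidance genes called lower (left) and higher (right) in LSD-treated rats under the fit as reported and 11 alternatives. The fit as reported gives 4 lower and 6 higher, and the alternatives range from 0 to 9 lower and from 1 to 11 higher.

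Across the fit as reported and these 11 alternatives *Sema3c* was called in every one. *Efna5*, *Epha5* and *Unc5b* each kept their call in 10 of the 11 alternatives, *Sema3d*, *Robo2* and *Sema4c* in 8, *Sema3a* in 7, *Ntn1* in 5 and *Sema3b* in 4. With 1 surrogate variable, the alternative with the most higher members, 11 were higher and 2 lower, beside 8.11% and 9.36% of all genes. That fit called *Plxna1* (0.30), *Plxna4* (0.34), *Plxnc1* (0.22), *Slit2* (0.37), *Epha4* (0.27) and *Ephb6* (0.225) higher, and not *Sema3a* (0.29).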

How the data were processed

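Libraries of poly(A) RNA, 1 per rat, were sequenced from 10 LSD-treated and 10 saline-treated rats. After trimming in TrimGalore and alignment by HISAT2 against rn6, the authors deposited raw HTSeq counts per gene. Versions, annotation and strand setting are not given in the sources used here, so overlapping and antisense genes cannot be told apart. The 5 unnamed rows, 25.5% to 29.0% of each library, entered no step.

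Genes reaching 5 reads in 10 or more rats were tested with edgeR 4.0.16 (R 4.3.3; TMM, quasi-likelihood F test, Benjamini-Hochberg over 16605 genes, threshold 0.05). Precision is set by the spread over rats. Alternatives used DESeq2 1.42.0, sva 3.50.0, other scalings, filters and covariates, and gene span offsets (89.9% of genes had a span). The offsets were each library's mean log2 deviation in 50 bins of span, smoothed over 5 bins. The edgeR fit was tested on simulated data.

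Members and lists were chosen with earlier results of these data known. Named genes were the called members, the most-read member of each family, and genes named after their values were seen: the members and partners that missed the threshold. The first 7 called genes of the 2 partner lists were named by p and 3 others afterwards, and 1 called effector is not reported here.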

Additional observations from a re-analysis of the deposited data

Results flagged for a closer look

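Among 94 groups of 10 rats examined for a rat far from the rest, 3 held one, where chance gives about 1 in 20. *Neo1*, the netrin receptor related to *Dcc*, was lowest in LSD rat 10 at 74.5 CPM, with the next rat at 93.4 CPM. *Robo3* was highest in saline rat 1 at 29.5 CPM, with the next at 15.8 CPM. *Arhgef12* was lowest in saline rat 9, one of the 4 rats above 20 CPM in *Adora2a*, at 44.9 CPM, with the next at 65.3 CPM. The part of tissue composition in these values was not tested.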

How the results depend on the processing

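Members called higher numbered 11 with 1 surrogate variable and 1 with gene span offsets, against 6 as reported. Higher calls over all genes numbered 1346, 568 and 1076 in these fits, in the same order. Members called lower, 4 as reported, numbered 7 with DESeq2, 2 with total counts, 1 with no filter on low counts, 2 with 1 surrogate variable, 2 at equal depth, 9 without the rats high in *Adora2a* and 0 with reads on genes as a covariate. Lower calls over all genes, 1418 as reported, numbered 1676, 858, 836, 1554, 1216, 1673 and 639 in the same order. The fit with no filter tested 25199 genes, that at equal depth 15699 and the others 16605. Leaving out 1 rat gave 3 to 8 higher and 1 to 9 lower, beside 659 to 1681 and 907 to 1867 over all genes. Calls among the other guidance receptors, 2 as reported, were 5 with total counts and 5 with 1 surrogate variable, and 2 to 5 with 1 rat left out, 5 being reached without LSD rat 10. Calls among the effectors, 9 as reported, were 14 with total counts, 14 with the replicate block, 14 without the rats high in *Adora2a* and 4 with the reads covariate. They were 4 to 14 with 1 rat left out, the lowest without saline rat 1 and the highest without saline rat 10. The cause of these shifts was not tested.

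Signs turned for genes near 0. Without the rats high in *Adora2a* *Plxna1* was at -0.00029, *Ephb6* at -0.12 and *Robo3* at -0.16. *Slit1* was at 0.015 with total counts, 0.20 with 1 surrogate variable and 0.37 with the reads covariate. *Sema3g* was at 0.013, 0.0027 and 0.0503 with total counts, span offsets and the reads covariate, and *Sema7a* at 0.0018 with the last. With 1 rat left out *Ephb6* ran from -0.0501 to 0.085, *Slit1* from -0.11 to 0.044, *Sema3g* from -0.083 to 0.018 and *Robo3* from -0.033 to 0.33.

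Rats of the 2 groups share numbers, but same-numbered rats deviated together in 6 of 10 pairs (correlation over 0.1; range -0.26 to 0.47). The mean correlation was 0.145 for same numbers and -0.016 for other pairs, and 1 LSD-treated rat of 10 correlated best with its own number. With the replicate block 7 members were higher and 5 lower, beside 1355 and 1606 of all 16605 genes. *Sema3b* and *Ntn1* lost their call, and *Epha4* (adjusted p = 0.0498), *Sema6b* (0.0197), *Unc5a* (0.0166) and *Ntng2* (0.0394) gained one, as did *Dcc* (0.0355), all in edgeR. Depth limits *Epha1* and *Efna4* most, at 2 to 13 and 2 to 24 reads per rat.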
